A study of Mus musculus with 8 samples.

Results

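The 9 genes described here are those that mark the surface pit and the neck of the gastric gland, out of 23361 genes in the deposited mouse RNA-seq table. They were taken by symbol. Of the 9, Muc5ac, Tff1, Gkn1, Gkn2, Muc1 and Psca are listed as 6 pit genes, and Muc6, Tff2 and Gkn3 as 3 neck genes. The study sequenced polyA+ RNA from 5 cancers and 3 control tissues of the gastric squamous-columnar junction (SCJ), where the squamous forestomach meets the glandular stomach. The cancers, labelled Trp53-/-Rb1-/-, arose in Lgr5eGFP-Ires-CreERT2 Trp53loxP/loxP Rb1loxP/loxP Ai9 mice. In these mice tamoxifen turns on Cre in Lgr5+ cells, removes both tumor suppressor genes there and switches on tdTomato, whose fluorescence guided the dissection several months later. The controls were SCJ tissue of wild type mice matched for age. The labels give no sex or age. Each sample was whole tissue, so fewer cells of a type and less RNA per cell cannot be told apart.

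Pit cells line the stomach surface and secrete a gel of Muc5ac, the main surface mucin, which Tff1, a small trefoil peptide, helps to organise. Gkn1 and Gkn2 are gastrokines, small secreted BRICHOS-domain proteins of the same cells. Neck cells lie deeper in the gland and secrete a second gel built on Muc6, with Tff2 as its trefoil peptide. Psca, a GPI-anchored Ly6-type protein, and Muc1, a mucin that stays in the apical membrane, are carried on the cell surface. Gkn3 is a gastrokine of neck cells.

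The values are FPKM, fragment numbers scaled by transcript length and library size, rounded to whole numbers in the deposited table. Groups were compared on log2(FPKM + 1) with limma over the 14357 genes that reached 1 FPKM in 3 samples, and p was adjusted over all of them with 0.05 as threshold. All 9 members were among these genes. A log2 difference here is cancer minus control on log2(FPKM + 1), which understates the change of a gene near 0. Read depth cannot be recovered from these values, and a 0 is given as the table lists it. FPKM summed to between 403569 and 573858 in the cancers and between 887141 and 992550 in the controls. Of the genes labelled as deleted, Rb1 was at 4 to 6 FPKM in the cancers and 9 to 10 in the controls (-0.90, adjusted p = 0.00589 from limma). Trp53 was at 12, 22, 12, 30 and 12 FPKM beside 16, 17 and 19 and showed no drop (-0.08, adjusted p = 0.870 from limma), with cancers 2 and 4 above every control. Values per gene do not separate the floxed exons from the rest of a transcript. Cancer 1 stood apart, with 18 genes listed at 0 that were at 100 FPKM or more in at least 5 other libraries, Muc5ac and Muc1 among them. In the controls Pgc, a chief cell gene, was listed at 0 in controls 2 and 3 and at 28832 in control 1, so a 0 may be a failed estimate as well as a low level.

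The pit genes were lower in every cancer than in any control, in 6 of 6 cases, whereas the neck genes overlapped between the groups in 3 of 3. Across all genes tested, 19.8% lay below every control in every cancer. By limma 1 of the 9 members, Gkn1, was past the threshold, where 18.3% of all genes were called lower and 16.2% higher. A further 3 members, Muc5ac, Gkn2 and Psca, had an unadjusted p under 0.05. For Psca the adjustment moved p from 0.0453 to 0.0974 in limma, so such p-values were common among all genes tested. The share of all genes at that cutoff was not counted, so this and later counts of unadjusted p have no background beside them. The median log2 difference was -4.50 over the pit genes, -1.22 over the neck genes and -0.04 over all genes tested. The members were chosen with results of these data known, so these counts are a description.

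Tff1 (chr17:31161396-31165053, minus strand, mm10) was among the most abundant transcripts of the control tissue, at 90741, 60040 and 93551 FPKM in controls 1 to 3. It stood at 26, 34501, 2203, 15866 and 8089 FPKM in cancers 1 to 5. The highest cancer was at 57.5% of the lowest control, and the cancers differed widely among themselves. The log2 difference was -4.71 (standard error 2.18, 95% interval -9.77 to 0.35, adjusted p = 0.126 from limma; exact permutation p = 0.0714). Tff1 ranked 1, 3 and 2 among all genes of controls 1 to 3, and 1, 2 and 2 in cancers 2, 4 and 5. In cancer 3 it ranked 11 and in cancer 1 it ranked 2312.

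Muc5ac (chr7:141789011-141819135, plus strand), whose product is the gel itself, was at 1554, 1010 and 2062 FPKM in the controls. In the cancers it was listed at 0, 285, 37, 145 and 104. Cancer 2 was the nearest to the controls, at 28.2% of the lowest of them. The log2 difference was -5.07 (standard error 1.71, 95% interval -9.03 to -1.11, adjusted p = 0.0524 from limma; exact permutation p = 0.0536), just short of the threshold.

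Gkn1 (chr6:87345653-87350915, minus strand) was the member that passed. It had FPKM of 41821, 33163 and 40890 in the controls and 491, 12040, 1023, 9669 and 2588 in cancers 1 to 5, which is 38625 ± 4753 (SD, n = 3) and 5162 ± 5320 (SD, n = 5). The controls were close to each other and the cancers differed by more than an order of magnitude. It fell by 3.81 on the log2 scale (standard error 1.11, adjusted p = 0.0336 from limma), and an exact permutation test (two-sided, 56 ways to choose 5 of 8 samples) gave p = 0.0357, where 0.0179 is the smallest possible. Without control 1, 2 or 3 its log2 difference was -3.75, -3.92 or -3.77 and its adjusted p from limma 0.102, 0.0874 or 0.0979. Without cancer 3 or 5 it was at -3.46 or -3.80 (adjusted p = 0.0780 or 0.0663), and with the replicate block at -4.40 (adjusted p = 0.123). After quantile normalization the log2 difference itself was smaller, -1.70 (adjusted p = 0.218 from limma).

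Gkn2 (chr6:87373365-87379494, plus strand), the partner that pairs with trefoil peptide Tff1 in a heterodimer, had FPKM of 67518, 49751 and 75451 in the controls. The cancers had 172, 18772, 1520, 18254 and 3912. Cancers 2 and 4 were nearly alike and cancer 1 was far below them. The log2 difference was -4.29 (standard error 1.54, adjusted p = 0.0619 from limma; exact permutation p = 0.0357).

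Psca (chr15:74714839-74717065, plus strand) had FPKM of 12941, 9720 and 11168 in the controls and 1, 2533, 259, 2579 and 511 in the cancers. The highest cancer was at 26.5% of the lowest control. Its log2 difference was -5.32 (standard error 2.23, adjusted p = 0.0974 from limma; exact permutation p = 0.0714).

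Muc1 (chr3:89229052-89233369, plus strand) was the least abundant pit gene in the controls, at 502, 336 and 389 FPKM. In the cancers it was listed at 0, 127, 32, 155 and 119. Apart from cancers 1 and 3, each cancer kept between 29.1% and 37.9% of the control mean, a narrower range than that of any other pit gene over the same 3 cancers. The log2 difference was -3.41 (standard error 1.61, adjusted p = 0.133 from limma; exact permutation p = 0.0714).

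The 3 neck genes gave another picture. Tff2 (chr17:31141062-31144282, minus strand) had FPKM of 3714, 2223 and 2343 in the controls and 2, 7031, 437, 2259 and 1189 in cancers 1 to 5. Cancer 2 was above all controls, cancer 4 was within their range, and the other cancers were below. The log2 difference was -2.49 with a 95% interval from -7.79 to 2.81 (adjusted p = 0.411 from limma), so neither a loss nor a gain was resolved.

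Muc6 (chr7:141634049-141655308, minus strand) had FPKM of 20, 25 and 43 in the controls and 0, 48, 6, 31 and 26 in the cancers. Cancers 2, 4 and 5 were at 164%, 106% and 88.6% of the control mean, and cancers 1 and 3 were below every control. Its log2 difference was -1.22, with a 95% interval from -4.04 to 1.61 (adjusted p = 0.453 from limma).

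Gkn3 (chr6:87383319-87388935, minus strand) had FPKM of 21, 55 and 43 in the controls. The cancers had 1, 1791, 47, 147 and 52. Cancer 2 was 32.6 times the highest control, cancer 4 was also above every control, and cancers 3 and 5 were within the range of the controls. The log2 difference was 0.82 (95% interval -3.51 to 5.16, adjusted p = 0.751 from limma), and without cancer 2 it was -0.36.

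**Figure D1:**
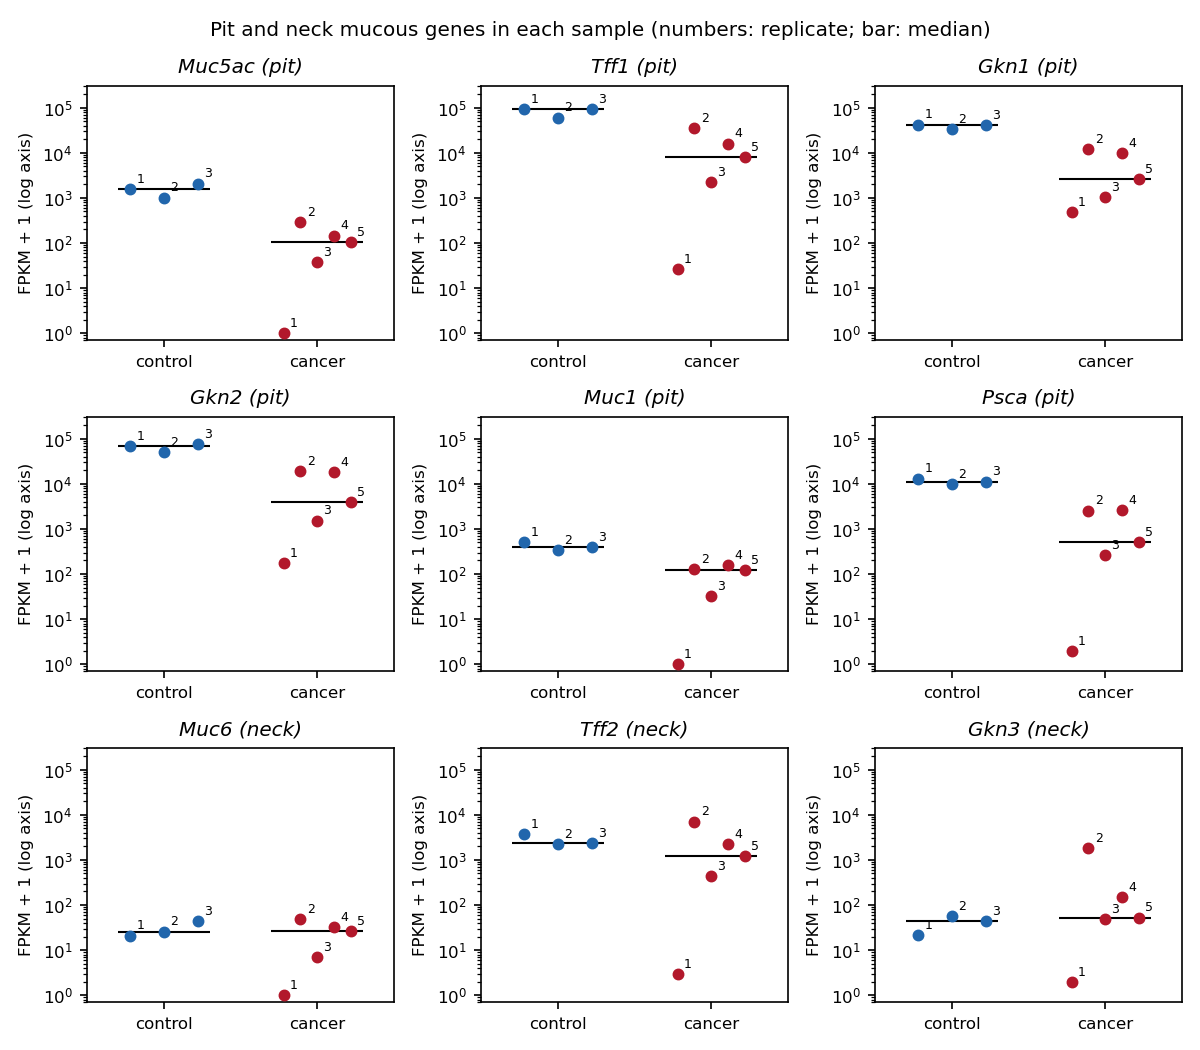
FPKM + 1 of each member on a log axis, with 1 point per sample (3 controls in blue, 5 cancers in red), numbered by replicate, and a bar at the group's median. Every cancer lies below every control in the 6 pit panels, and the groups overlap in the 3 neck panels.

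The cancers kept the same order in one member after another. In 9 of 9 members cancer 1 was lowest, cancer 3 came next, then cancer 5, and cancers 2 and 4 were the highest pair. Of all genes tested 6.52% showed this order. Cancer 2 was the highest in 7 members and cancer 4 in Muc1 and Psca. In cancer 3 the pit genes other than Muc1 were between 2.30% and 2.70% of their control mean, and Muc1 was at 7.82%. In cancer 5 the same genes were between 4.53% and 9.93%, and Muc1 was at 29.1%.

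**Figure D2:**
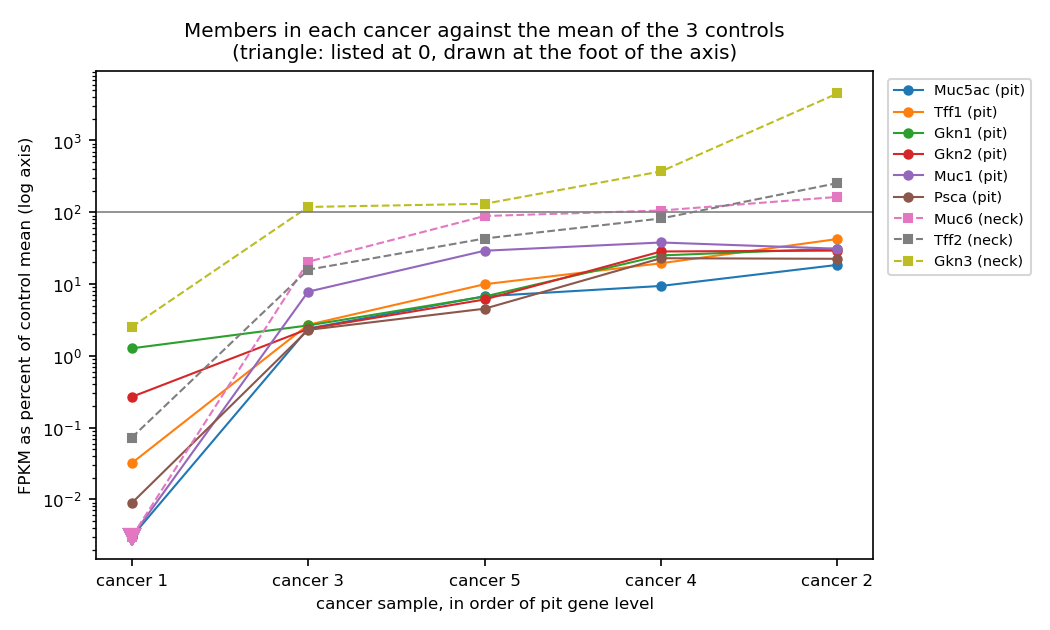
FPKM of each member in each cancer as percent of the mean of the 3 controls (log axis), with the cancers in the order of their pit gene levels; solid lines are pit genes, dashed lines neck genes, and triangles values listed at 0. All pit lines stay below 100%, whereas each neck line reaches over 100% in cancer 2.

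Cancer 1 weighed heavily on the test. Its pit genes ran from 0 to 1.27% of the control mean, and leaving it out narrowed the spread of the cancers. Without it 4 members were past the threshold, all lower, where 15.4% of all genes were called lower: Muc5ac at -3.70 (adjusted p = 0.0116 from limma), Psca at -3.54 (0.0296), Muc1 at -2.10 (0.0331) and Gkn1 at -3.20 (0.0466). Gkn2 at -3.24 (adjusted p = 0.0587 from limma) and Tff1 at -3.01 (0.0700) were close to it. The neck genes without cancer 1 were at -0.31 (Muc6), -0.66 (Tff2) and 2.09 (Gkn3), with 0 past the threshold in limma.

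**Figure D3:**
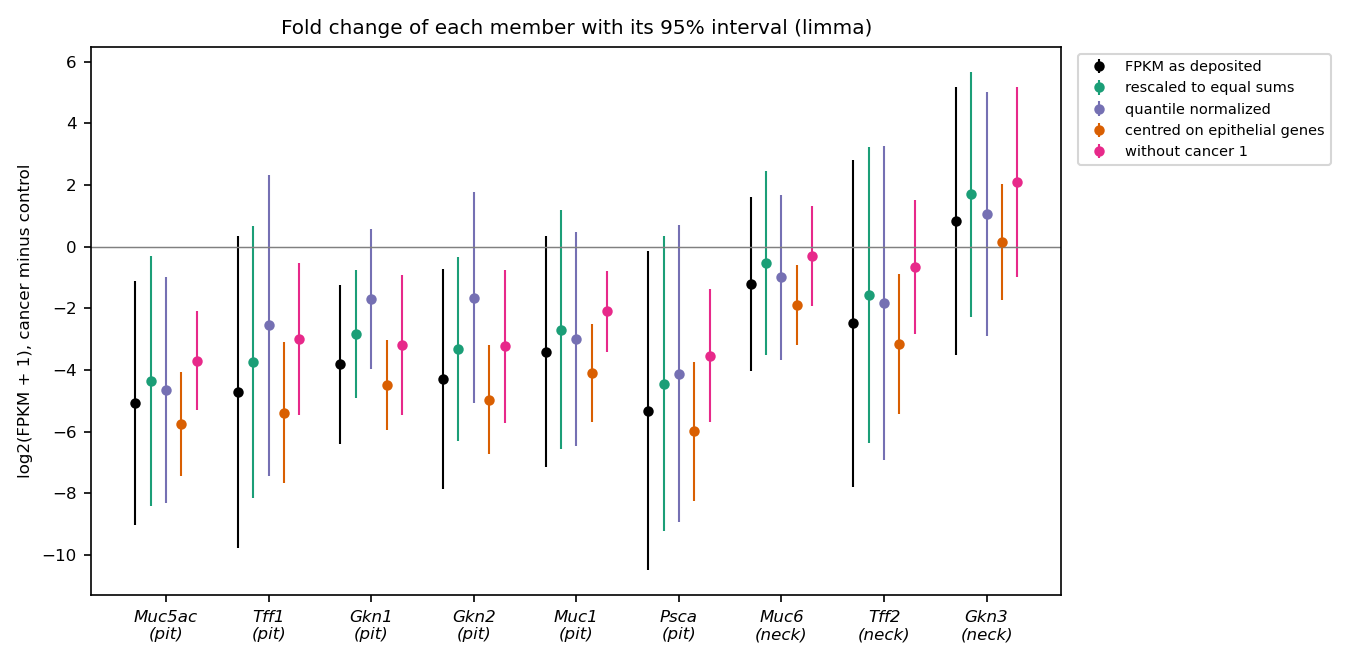
Difference in log2(FPKM + 1), cancer minus control, of each member with its 95% interval from limma, for the values as deposited, rescaled to equal sums, quantile normalized, centred on 7 epithelial genes, and without cancer 1. The pit genes are below 0 under each of the 5, the intervals narrow without cancer 1 or when centred, and Gkn3 is the only member above 0.

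As a share of all FPKM, the 9 members made up 22.9%, 17.6% and 22.8% of controls 1 to 3. In cancers 1 to 5 they made up 0.172%, 13.4%, 1.27%, 8.77% and 3.72%. The pit genes gave nearly all of the control share, and the neck genes were at 0.393%, 0.260% and 0.245% of all FPKM. As a share, the neck genes were above every control in cancers 2 and 4, at 1.55% and 0.435% of all FPKM, while the pit genes there were at 11.9% and 8.34%, below every control. In cancer 4 the neck genes themselves summed to 2437 FPKM, within the 3755, 2303 and 2429 of the controls. Its higher share came with a sum of all FPKM that was below every control.

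Ratios within a sample were taken of FPKM + 1, so those of genes listed at a few FPKM, as in cancer 1, rest partly on the 1 added. Gkn1 was between 53.0% and 67.3% of Gkn2 in cancers 2 to 5 and between 54.2% and 66.7% in the controls, so these neighbouring gastrokines kept their proportion in the 4 cancers. In cancer 1 Gkn1 was at 284% of Gkn2. The ratio of Tff1 to Muc5ac also overlapped between the groups (log2 ratio 6.11 ± 0.87, SD, n = 5, in the cancers and 5.75 ± 0.22, SD, n = 3, in the controls).

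Both neck to pit ratios taken, Tff2 to Tff1 and Muc6 to Muc5ac, were higher in the cancers. Tff2 was 11.1%, 20.4%, 19.9%, 14.2% and 14.7% of Tff1 in cancers 1 to 5 and 4.09%, 3.70% and 2.51% in the controls. In cancer 1 this was 2 beside 26 FPKM. Every cancer was above every control, by 2.22 on the log2 scale between the group means, where the SD was 0.37 in each group. Gkn3 was 4.45% to 25.5% of Tff2 in cancers 2 to 5 and 0.592% to 2.52% in the controls, and in cancer 1 they were at 1 and 2 FPKM, too low for a ratio. Within the pit group, Muc1 was 44.8% to 114% of Muc5ac in cancers 2 to 5 and 18.9% to 33.3% in the controls. Muc6 was 17.1%, 18.4%, 21.9% and 25.7% of Muc5ac in cancers 2 to 5 and 1.35%, 2.57% and 2.13% in the controls. In cancer 1 Muc1, Muc6 and Muc5ac were all listed at 0, and both ratios there rest on the pseudocount alone. Within the neck group the log2 ratio of Tff2 to Muc6 overlapped, at 5.26 ± 2.15 (SD, n = 5) in the cancers, where Muc6 was at 0 in cancer 1, and 6.54 ± 0.87 (SD, n = 3) in the controls. These are descriptions, with no test, and the ratio of Muc6 to Muc5ac was chosen after its values were seen.

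**Figure D4:**
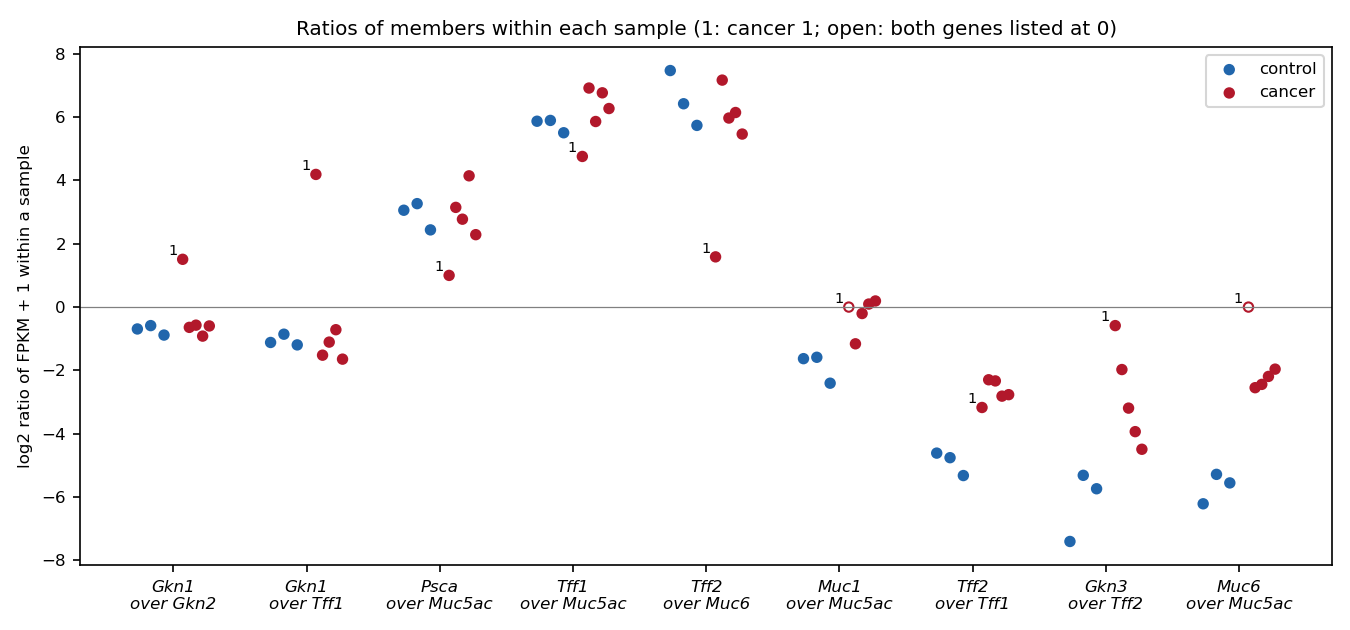
Log2 ratio of FPKM + 1 between pairs of members within each sample, controls in blue and cancers in red, with cancer 1 marked by a 1 and open points where both genes are listed at 0. The first 5 of the 9 ratios overlap between the groups, and in the last 4, from Muc1 over Muc5ac on, cancers 2 to 5 all lie above the controls.

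Of the 9 members, 7 lie in 3 groups of neighbouring genes, and Muc1 on chromosome 3 and Psca on chromosome 15 lie apart. The gastrokines Gkn1, Gkn2 and Gkn3 span 43.3 kb of chromosome 6, the trefoil genes Tff1, Tff2 and Tff3 span 39.7 kb of chromosome 17, and the mucins Muc6, Muc2, Muc5ac and Muc5b span 239 kb of chromosome 7. In the gastrokine family Gkn3 lay 3824 bases from Gkn2 and had a log2 difference of 0.82 beside -4.29 for Gkn2. In the mucin family Muc2, the intestinal gel mucin that lies between Muc6 and Muc5ac, was listed at 0 in 7 of the 8 samples and at 1 in cancer 1. Muc5b, a mucin of the airway and salivary glands, was at 1, 0, 4, 4 and 12 FPKM in the cancers, beside 2, 1 and 1 in the controls.

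Tff3, the intestinal trefoil peptide, was at 47, 10, 51, 4 and 1 FPKM in the cancers, beside 3, 1 and 4 in the controls (log2 difference 1.84, adjusted p = 0.219 from limma). Its highest values were in cancers 1 and 3, where Tff1 and Tff2 were lowest. Of the genes flanking the members, Antxr1 before Gkn1, Trim46 after Muc1, Them6 and Jrk beside Psca and Tmprss3 beside Tff1 were tested, and 0 of these 5 passed the threshold or had an unadjusted p under 0.05 in limma. Of the 5, 4 were under 3 FPKM in every control. Muc5b (adjusted p = 0.508 from limma) and Tff3, given above, also flank members and did not pass. Besides these and Muc2, the neighbours left outside the members were Bmp10, Mir92b and Gm16982, listed at 0 or 1 throughout.

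Promoter sequence was read from RefSeq (GRCm38.p6) for 5 of the 9 members, Gkn1, Gkn2, Gkn3, Muc1 and Muc6. Muc5ac, Tff1, Psca and Tff2 were not matched. The 250 bases before the start were searched on both strands for GATAA, the core that GATA factors recognise (TTATC on the other strand), for TATAAA, a core promoter element, and for TGTTTGC, a forkhead core. Their matches shared no bases with each other. GATAA was present in 4 of the 5, Gkn1, Gkn2, Gkn3 and Muc6, each with 2 matches. Of 32851 promoters of the same length, 22.6% held 1 or more and 4.28% held 2 or more. TATAAA was present in Gkn2 and Muc1 (12.4% of all promoters) and TGTTTGC in Gkn2 and Gkn3 (4.30%). The 4 promoters with GATAA are printed because they come from both pit and neck genes. Each is shown 5′ to 3′ along the gene's strand, ending at the base before the RefSeq start, and capitals mark the matches. The RefSeq start of Muc6 lies 85 bases upstream of the deposited one, and the positions given count from the RefSeq start. They are Gkn1 at chr6:87350916-87351165 (minus), Gkn2 at chr6:87373115-87373364 (plus), Gkn3 at chr6:87388936-87389185 (minus) and Muc6 at chr7:141655394-141655643 (minus).
Gkn1: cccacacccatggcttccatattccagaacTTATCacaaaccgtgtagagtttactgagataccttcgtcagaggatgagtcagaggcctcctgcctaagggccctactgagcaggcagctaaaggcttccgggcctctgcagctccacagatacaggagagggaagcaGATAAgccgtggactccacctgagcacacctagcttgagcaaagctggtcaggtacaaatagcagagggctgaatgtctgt
Gkn2: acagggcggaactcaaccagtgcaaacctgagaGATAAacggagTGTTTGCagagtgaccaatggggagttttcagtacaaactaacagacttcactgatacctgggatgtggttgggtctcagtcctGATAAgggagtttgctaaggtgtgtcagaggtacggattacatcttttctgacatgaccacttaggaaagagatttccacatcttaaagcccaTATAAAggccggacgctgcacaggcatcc
Gkn3: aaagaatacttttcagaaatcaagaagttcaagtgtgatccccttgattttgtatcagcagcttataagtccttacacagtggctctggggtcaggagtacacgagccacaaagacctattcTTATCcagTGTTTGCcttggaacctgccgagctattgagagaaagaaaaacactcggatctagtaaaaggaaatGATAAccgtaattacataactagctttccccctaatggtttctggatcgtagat
Muc6: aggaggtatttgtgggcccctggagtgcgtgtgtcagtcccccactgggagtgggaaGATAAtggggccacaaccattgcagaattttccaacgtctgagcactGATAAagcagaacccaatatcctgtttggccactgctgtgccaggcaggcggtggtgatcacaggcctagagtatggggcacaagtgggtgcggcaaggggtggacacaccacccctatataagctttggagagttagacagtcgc
The GATAA matches began 220 and 81 bases before the start in Gkn1, 217 and 122 in Gkn2, 128 and 54 in Gkn3, and 193 and 146 in Muc6. The TATAAA of Gkn2 began 29 bases before the start. A match is a run of letters, and no binding was measured here.

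Transcription factors of the mucous and foregut lineages were examined as a list of 14. Of these 5 were past the threshold, 0 higher and 5 lower, and 6 lay below every control in every cancer, which is 35.7% and 42.9% of the list beside 18.3% and 19.8% of all genes tested. Gata4 was at 20, 47, 22, 33 and 21 FPKM in the cancers, beside 120, 109 and 111 in the controls (log2 difference -2.03, adjusted p = 0.00290 from limma). Klf4, a zinc finger factor of differentiated surface epithelium, had 15, 93, 28, 46 and 57 beside 318, 209 and 252 (-2.64, adjusted p = 0.00970). Foxa3, Gata6 and Hnf4a, all foregut factors, fell by 1.67, 1.61 and 1.27 on the log2 scale. Each of these 5 varied less among the cancers than the pit genes did. With the libraries rescaled to equal sums, which moved the median of all genes to 0.81, the list had 2 higher and 4 lower, where 50.0% of all genes were called higher and 3.68% lower. With the replicate block 0 of the list passed in limma (6 at an unadjusted p under 0.05).

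Foxq1, needed for Muc5ac expression in pit cells, was at 0, 69, 8, 55 and 31 FPKM in the cancers, beside 141, 109 and 134 in the controls (-2.98, adjusted p = 0.114 from limma). Spdef, a factor of mucous secretory cells, had 0, 23, 5, 21 and 11 beside 23, 24 and 37 (-1.78, adjusted p = 0.191). Both had the order of the cancers that the members had, with cancer 1 at 0. Of the 14 factors 3 had this order, beside 6.52% of all genes tested.

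Other genes of the surface and neck mucous cells formed a list of 15, of which 5 fell and 0 rose (9 had an unadjusted p under 0.05 in limma, a cutoff at which the share of all genes was not counted). The count was 2 without any 1 of the controls, 3 with equal sums or quantile normalization and 0 with the replicate block (4 at an unadjusted p under 0.05). Another 5 lay below every control in every cancer without passing, giving 10 in all (33.3% and 66.7% of the list, beside the same 18.3% and 19.8%), and 9 of the 15 had the members' order of cancers. The 5 were Capn9 (log2 difference -3.72, adjusted p = 0.0180 from limma) and Capn8 (-2.82, 0.00385), both calpain proteases of the stomach, Vsig1 (-2.63, 0.0484), an adhesion protein, Cldn18 (-2.10, 0.00753), a tight junction protein, and Tspan8 (-1.04, 0.0451), a tetraspanin. Aqp5, a water channel of neck and deep gland cells, was at 0, 82, 6, 25 and 34 FPKM in the cancers, beside 6, 5 and 6 in the controls. It was above every control in cancers 2, 4 and 5.

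Enzymes and factors that build and pack mucin glycans were counted over 24 genes tested, of 26 listed. Of these 8 fell and 3 rose (33.3% and 12.5%, beside 18.3% and 16.2% of all genes), and with the libraries rescaled to equal sums 4 fell and 5 rose, where 3.68% of all genes were called lower and 50.0% higher. With the replicate block 3 fell and 1 rose, where 552 and 982 of 14357 genes did. Without control 1, 2 or 3 the count in both directions was 5, 5 or 6, where 2548, 2700 or 2874 of 14357 genes were called. B4galnt3, which adds N-acetylgalactosamine to glycan ends, was at 2, 6, 2, 2 and 5 FPKM in the cancers, beside 68, 45 and 60 in the controls (-3.82, adjusted p = 0.000882 from limma). Fut4, a fucosyltransferase, and B3gnt7 fell by 3.07 and 2.86 on the log2 scale. The 3 that rose were St3gal4, a sialyltransferase (43, 21, 57, 27 and 42 FPKM beside 5, 4 and 5; 2.70, adjusted p = 0.00153 from limma), Creb3l1, a factor of secretory capacity (1.88, 0.0257), and Gcnt4 (0.95, 0.0209), whose values stayed at 5 FPKM or less. Gcnt3, a core branching enzyme of mucin glycans, had 0, 119, 10, 58 and 56 FPKM in the cancers, beside 245, 177 and 175 in the controls, and did not pass (-3.21, adjusted p = 0.120 from limma). A4gnt, which caps the glycans of Muc6 and was counted with the 15 mucous cell genes, had 0, 19, 3, 11 and 8 beside 23, 17 and 28.

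Of 13 other mucin and trefoil entries 9 were in the table and 6 were tested, and 1, Muc15, passed at 0 to 1 FPKM in the cancers and 2 to 3 in the controls (-1.32, adjusted p = 0.0179 from limma). Of 13 genes related to Psca in the Ly6 family, Gpihbp1 was higher (1.77) and Lypd2 (-1.38) and Gml (-1.13) were lower, all 3 at 7 FPKM or less. These are 7.69% and 15.4% of the family, and Muc15 16.7% of its list, none above the 16.2% and 18.3% of all genes called higher and lower. With the libraries rescaled to equal sums the family had 6 higher and 1 lower, where 50.0% and 3.68% of all genes were called.

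For each member the 2 genes outside the 9 with the most similar profile over the 8 samples were found by the root mean square difference of log2(FPKM + 1), each gene centred on its own mean. These were Lypd8 (0.57) and Dpcr1 (0.65) for Muc5ac, 2210407C18Rik (0.57) and Gsdma2 (0.67) for Tff1, Vstm2b (0.28) and Shh (0.29) for Gkn1, and Rbp2 (0.38) and Mogat1 (0.48) for Gkn2. They were Aldh3a1 (0.37) and Gsto1 (0.39) for Muc1, and Ghrl (0.61) and Gif (0.66) for Psca. For the neck genes they were Otop3 (0.43) and Spdef (0.46) for Muc6, Gsta4 (0.86) and Lgals4 (0.94) for Tff2, and Aqp5 (1.16) and Wfdc18 (1.21) for Gkn3. The profile of Gkn3 was the least closely matched. Among the members the closest pair was Tff1 and Psca (0.51) and the farthest was Psca and Gkn3 (3.26).

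Markers of other cell types moved with the members in part. The members' order of cancers was found in 2 of 7 parietal, 1 of 5 chief and 0 of 8 squamous genes. Genes of acid-secreting parietal cells had a mean log2(FPKM + 1) of 1.31, 4.84, 3.52, 5.72 and 3.50 in cancers 1 to 5 and 6.41, 6.92 and 6.85 in the controls. Summed, they were at 62 to 2290 FPKM in the cancers and 4194 to 7677 in the controls. Of the 7, 4 were lower and 1 higher, 5 lay below every control in every cancer, and the defining pair Atp4a and Atp4b was listed at 0 in cancer 1. Chief cell genes had a mean of 1.26, 6.71, 4.96, 8.30 and 5.85 in the cancers (summed, 13 to 10492 FPKM) and 9.84, 4.41 and 7.43 in the controls (5046 to 46504), and 1 of 5 was lower. These control values rest in part on Pgc, listed at 0 in controls 2 and 3, and on Chia, at 15020, 0 and 26833 FPKM in controls 1 to 3, which may be failed estimates. Squamous genes, which mark forestomach epithelium, had 0.12, 1.13, 4.90, 6.71 and 5.42 in the cancers (1 to 1718 FPKM) and 6.23, 6.83 and 7.01 in the controls (2150 to 3712), with 2 of 8 lower. In cancer 1 of the squamous genes 7 of 8 were at 0. Called lower were 57.1% of the parietal, 20% of the chief and 25% of the squamous genes, beside 18.3% of all genes tested. The part of these other cells in the member values was not tested.

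Endocrine genes had a mean of 7.72 to 8.96 in the cancers (8040 to 17891 FPKM summed) and 2.38 to 2.86 in the controls (125 to 188), and 7 of 7 were higher, Chga and Chgb being the most abundant. Neurod1 was at 0 in every control. Smooth muscle genes were at 2.38, 8.04, 6.31, 5.79 and 3.47 in cancers 1 to 5 and 5.78 to 6.37 in the controls, with 0 of 6 past the threshold and 0 at an unadjusted p under 0.05 in limma. Leukocyte genes had 3.65 in cancer 1, with 1.46 to 2.22 elsewhere among the cancers and 1.03 to 1.13 among the controls. Of these 6 genes 2 were higher, where 16.2% of all genes were called higher. Fibroblast genes were at 3.00 to 5.28 in the cancers and 3.21 to 4.09 in the controls, with 0 of 6 called (1 at an unadjusted p under 0.05 in limma). Of 9 goblet and intestinal markers 3 were tested and 0 called (1 at an unadjusted p under 0.05 in limma), and Muc2, Cdx1 and Reg4 were at 0 or 1 in every sample. Spink4 was above every control in every cancer, at 260, 870, 2675, 453 and 193 FPKM beside 63, 129 and 150 (adjusted p = 0.0603 from limma), and in cancer 2 Zg16 was at 30 and Fcgbp at 62 FPKM.

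Epithelial genes of simple glands had a mean of 6.25, 7.87, 7.04, 7.43 and 7.90 in cancers 1 to 5 and 6.79, 6.52 and 6.55 in the controls. These 7 genes differed in direction. Epcam, Cldn3, Cldn4 and Cldn7 were higher and Krt8 lower, and Krt19 had 13, 1838, 195, 999 and 476 FPKM in the cancers beside 3178, 2520 and 2401 (adjusted p = 0.123 from limma). When each sample was centred on the mean of these 7 genes, 8 of the 9 members were past the threshold, all lower, and Gkn3 was not (0.15, adjusted p = 0.924 from limma). That centring moved the median of all genes to -0.72 and the share of all genes called lower to 24.6%. On that scale the members' median was -4.49. Of the 7 genes, 3 (Krt8, Krt18 and Krt19) had the members' order of cancers. With centring the standard error of Muc5ac was 0.82, beside 1.71 without it. How much of the 8 calls rests on this choice of genes was not tested.

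**Figure D5:**
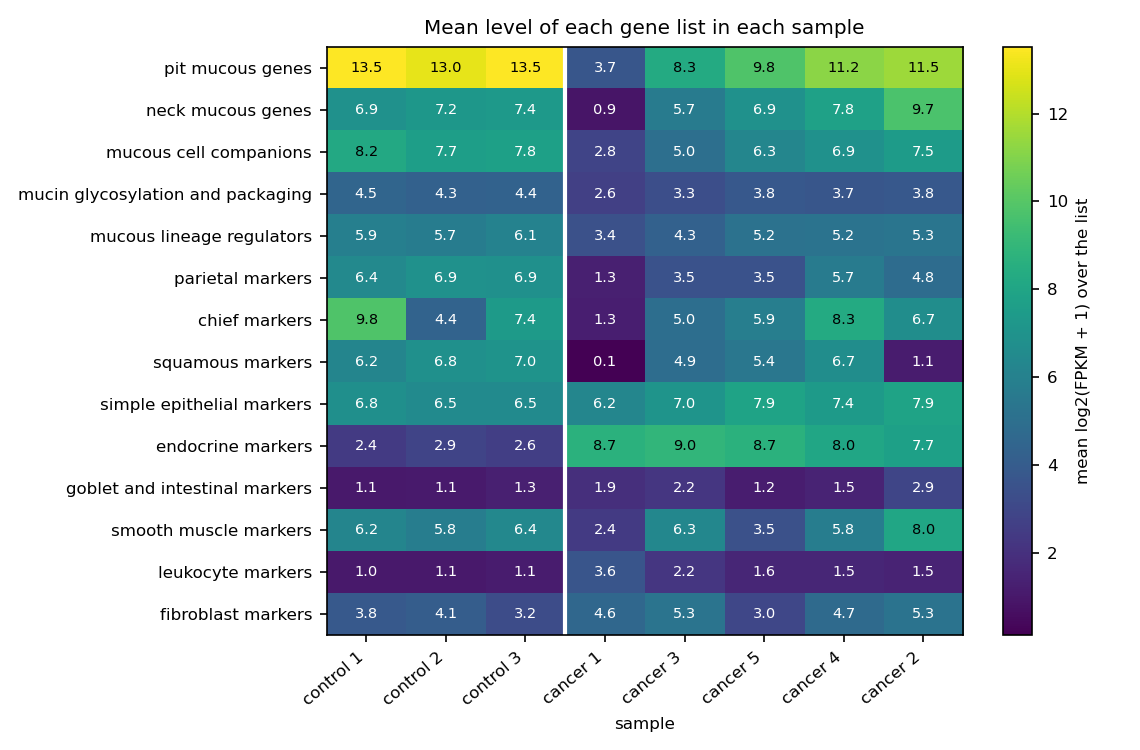
Mean log2(FPKM + 1) of each gene list (rows) in each sample (columns, controls first, then cancers in the order of their pit gene levels); colour and printed value give the mean. The pit row goes from between 13.02 and 13.52 in the controls to between 3.69 and 11.55 in the cancers, and the parietal row is also below the controls in every cancer, whereas the endocrine row is higher in every cancer.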

How the data were processed

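RNA of 5 SCJ cancers and 3 control SCJ tissues was sequenced from directional polyA+ libraries. The authors trimmed reads with cutadapt 1.8, and the submitters' processing notes name TopHat2 2.0.13 and Cuffnorm 2.2.1; UCSC mm10 genes were quantified with cuffquant. The deposited FPKM are rounded to whole numbers (100% were whole) and were treated as a score, not as a read count, so depth is unknown, no counting interval is given and low values carry few steps. Whether cuffnorm rescaled the libraries against each other is not given in the sources used here. All 8 columns were used. Deposited starts count from 0, and 1 was added.

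The 14357 genes that reached 1 FPKM in 3 samples or more were fitted with limma 3.58.1 in R 4.3.3, by lmFit and eBayes with a trend and without covariates, after taking log2(FPKM + 1). P-values were adjusted after Benjamini and Hochberg over these genes, and 0.05 was the threshold. For single members the mean difference was tested by exact permutation, two-sided, over 56 assignments. The fit was also run on simulated data, drawn independently for each gene with the same spread in both groups. That simulation held no sample low in many genes at once, as cancer 1 was here, so it does not bear on such a case. Nothing in the labels says that samples came from separate animals beyond their separate entries, so p-values measure the spread between these samples. Members and lists were chosen with earlier results of these data known. Genes named are the 9 members, up to 4 genes of each context list with the largest change past the threshold (all where 5 or fewer passed), the 3 most abundant of each marker list at most, the 2 nearest profiles and the chromosomal neighbours. Creb3l1, Gcnt4, Epcam, Cldn3, Cldn4, Cldn7, Spink4, Zg16, Fcgbp, Foxq1, Spdef, Aqp5, Gcnt3, A4gnt, Tff3, Neurod1, Krt19 and the markers at 0 were named after their values were seen. Alternatives were another pseudocount (0.1), other filters, TPM (each library rescaled to the same sum), quantile normalization, centring on 7 epithelial genes, a replicate block and leaving out each sample. Python 3.11.15 with pandas 2.3.3 and scipy 1.17.1 made the summaries and matplotlib 3.10.9 the plots. Of the replicate numbers shared by cancers and controls, correlations of the samples' deviations were -0.02, -0.19 and -0.10.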

Additional observations from a re-analysis of the deposited data

Results flagged for a closer look

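Of 33 results examined within the 5 cancers, 4 had 1 cancer whose gap to the nearest other, divided by the range of the group, was above 0.71, Dixon's 95% value for 5 samples, where chance gives about 1.65. The log2 ratio of Gkn1 to Gkn2 had a quotient of 0.857, with cancer 1 highest: Gkn1 was at 284% of Gkn2 there and at 53.0% to 67.3% in the other cancers. The log2 ratio of Gkn1 to Tff1 had 0.841, again with cancer 1 highest, at 491 FPKM of Gkn1 beside 26 of Tff1. The log2 ratio of Muc6 to Muc5ac had 0.770, with both genes listed at 0 in cancer 1. The mean level of the fibroblast genes had 0.713, with cancer 5 lowest at 3.00.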

How the results depend on the processing

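The direction of 8 members, all but Gkn3, was the same under each of the 16 settings run, and Gkn1 passed the threshold in 9 of them, Muc5ac and Gkn2 in 4, Muc1 and Psca in 2, Tff1, Muc6 and Tff2 in 1 and Gkn3 in 0. Quantile normalization gave -1.70 for Gkn1, -1.66 for Gkn2 and -2.55 for Tff1 where -3.81, -4.29 and -4.71 were reported. Of 135 comparisons of single members with their reported call 112 kept it, 15 were newly past the threshold, 7 lost it and 1 reversed, Gkn3 at -0.36 without cancer 2 (range -0.36 to 2.09 without 1 sample).

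The count of changed members, 1 as reported, was 3 with a mean FPKM of at least 5, 0 after quantile normalization, 8 when centred on epithelial genes and 0 with the replicate block (1 at an unadjusted p under 0.05). The 3 with that filter were all lower, where 2275 of 9138 genes were called lower. Leaving out 1 sample at a time gave 0 to 4, with 4 without cancer 1, 3 without cancer 2, 2 without cancer 4 and 0 without any other (1 to 3 at an unadjusted p under 0.05). All of these members were lower, where 2207, 2773 and 2732 of 14357 genes were called lower without cancer 1, 2 and 4. Of all genes 4948 were called (2326 higher, 2622 lower), against 7704 with TPM (7176 and 528) and 1534 with the replicate block; without 1 sample the count was 2548 to 5232, lowest without control 1, 2 or 3 (2548, 2700 and 2874). Centring gave 494 higher and 3526 lower. Same-numbered samples were not paired: their deviations correlated at -0.02 to -0.19. The mucous cell companions, 5 as reported, had 3 with TPM or quantile normalization, 13 when centred, 0 with the block and 2 to 7 without 1 sample. The other mucins and trefoil, 1 as reported, had 0 with a mean FPKM of at least 5 or TPM, 2 with quantile normalization, centring or the block, and 0 to 1 without 1 sample. The glycosylation genes, 11 as reported, had 17 when centred, 4 with the block and 5 to 13 without 1 sample. The regulators, 5 as reported, had 10 when centred, 0 with the block and 4 to 6 without 1 sample. The Ly6 family, 3 as reported, had 1 with a mean FPKM of at least 5, 7 with TPM, 6 when centred and 1 to 4 without 1 sample. The members' mean share of control FPKM, 21.1%, was 26.6% without the 10 most abundant other genes; the table held 0 mitochondrial genes. The log2 ratio difference of Gkn1 to Tff1, 0.90, was -0.19 without cancer 1 (range -0.19 to 1.27), and that of Psca to Muc5ac, -0.25, was 0.25 with a pseudocount of 0.1 and 0.17 without cancer 1 (range -0.62 to 0.17). The cause of these shifts was not tested.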
